A study of Mus musculus with 30 samples.

Results

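The 4 Hox gene clusters of the mouse were examined as targets of piggyBac (PB) and Sleeping Beauty (SB) gene therapy vectors in liver. They were taken as fixed windows on the GRCm39 build: chr6:52100001-52300000 for Hoxa, chr11:96000001-96300000 for Hoxb, chr15:102800001-103100000 for Hoxc and chr2:74400001-74700000 for Hoxd. The windows cover 1.1 Mb and held 910 of 2181704 nuclear insertion sites, 482 from PB and 428 from SB. Sites were mapped by streptavidin-based enrichment sequencing (SBE-seq), in which junctions between transposon and genome are amplified with a biotinylated primer. The samples were genomic DNA of whole livers of gene therapy treated Fah KO (TT1) mice, 17 livers in the PB group and 13 in the SB group. All animals of both groups carried the Fah deletion and there was no untreated group. Strain, sex, age, dose, vector cargo and monitoring time are not given in the sources used here.

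Hox genes encode homeodomain transcription factors that set position along the body axis of the embryo, and in each cluster their order on the chromosome matches their order of expression along that axis. The clusters are rich in GC, and in adult tissues much of their length is held silent by Polycomb-marked chromatin. PB and SB are DNA transposons moved by a cut-and-paste transposase, PB into TTAA and SB into TA. In Fah-deficient liver, corrected hepatocytes outgrow the others, so the sites seen are those of surviving cells. How often a site was hit and how well the cell then survived cannot be told apart here.

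The gene table at hand, which describes GRCm38.p6 and was used for names and order only, lists 39 Hox genes and 2 Evx genes in the clusters. Hoxa lies between Skap2, a signalling adaptor, and Hibadh, an enzyme of valine breakdown, and ends on the Hibadh side with Hoxa13 and Evx1, a further homeobox gene. Hoxb runs from Hoxb13 to Hoxb1 between Ttll6, a tubulin-modifying enzyme, and Skap1. Hoxc runs from Hoxc13 to Hoxc4 between Calcoco1 and Smug1, a uracil-DNA glycosylase. Hoxd runs from Evx2 and Hoxd13 to Hoxd1 between Lnpk, an endoplasmic reticulum protein, and Mtx2, a mitochondrial outer membrane protein. Genes were not placed on GRCm39 here, so a density at an edge of a window cannot be assigned to a Hox gene or to its neighbour.

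Hox promoters differ widely in how many target motifs they offer. RefSeq promoter sequences (GRCm38.p6) were matched for 24 of the 41 genes, as 26 promoters. Hoxc is represented by Hoxc4 alone and Hoxb by Hoxb8, Hoxb4 and Hoxb1, so the values describe mostly Hoxa and Hoxd. In the 250 bases before the start, 13 of 26 (50.0%) held TTAA, a palindrome that reads the same on both strands, against 49.0% of all 32851 promoters and 11 of 22 (50.0%) of the neighbouring genes. The median number of TA steps, each TTAA holding 1, was 7 in Hox promoters and 9 in all promoters, and the median GC content was 56.8% and 52.4%. 4 extremes are shown 5′ to 3′ in gene orientation, with TTAA in capitals, because they span the range of PB targets before a Hox start: the first pair has the most TTAA at low GC and the other pair has none at high GC.
Hoxd4: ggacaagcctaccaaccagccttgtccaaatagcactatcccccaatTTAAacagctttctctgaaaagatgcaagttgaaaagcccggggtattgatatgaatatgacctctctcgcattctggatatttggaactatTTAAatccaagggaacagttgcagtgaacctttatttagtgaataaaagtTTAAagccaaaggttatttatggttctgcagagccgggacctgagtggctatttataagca
Hoxb8: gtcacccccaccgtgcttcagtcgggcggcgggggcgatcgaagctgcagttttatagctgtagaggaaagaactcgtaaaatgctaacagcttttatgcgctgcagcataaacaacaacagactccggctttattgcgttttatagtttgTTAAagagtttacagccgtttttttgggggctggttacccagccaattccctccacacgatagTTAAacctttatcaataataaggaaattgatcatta
Hoxa13: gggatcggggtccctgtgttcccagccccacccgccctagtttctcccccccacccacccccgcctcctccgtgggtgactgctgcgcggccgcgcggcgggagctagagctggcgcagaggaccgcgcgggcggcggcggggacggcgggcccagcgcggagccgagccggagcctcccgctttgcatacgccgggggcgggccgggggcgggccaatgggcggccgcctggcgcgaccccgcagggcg
Hoxd13: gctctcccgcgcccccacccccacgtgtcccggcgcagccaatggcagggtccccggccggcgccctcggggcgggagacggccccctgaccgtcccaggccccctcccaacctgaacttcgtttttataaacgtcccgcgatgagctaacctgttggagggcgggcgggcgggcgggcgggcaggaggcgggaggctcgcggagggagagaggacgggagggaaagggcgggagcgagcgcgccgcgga
The Hoxd4 stretch, from a gene of hindbrain patterning, holds 3 TTAA and 19 TA at 40.4% GC. The Hoxb8 stretch holds 2 TTAA and 19 TA at 44.4% GC. The stretches of Hoxa13 and Hoxd13, genes of limb-end and urogenital development, hold 0 TTAA and 3 TA each, at 80.0% and 74.4% GC. No insertion was assigned to these stretches, since the builds differ.

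A liver's catalogue held 16364 to 124238 nuclear sites in PB and 4893 to 120219 in SB. This number limits the precision, because a liver had only 6 to 54 window sites in PB (median 29) and 3 to 53 in SB (median 36). Density is therefore given as sites per Mb per 10000 nuclear sites of the same liver. PB livers numbered 13 to 17 and SB liver 13 had the smallest catalogues, up to 40598 and 4893 sites, and what sets them apart is not stated in the labels. Livers are the replicates. The spread between them includes counting error, and amplified reads without molecular identifiers do not count independent molecules.

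Both vectors were found less densely in the Hox windows than in the 1 Mb on each side. In PB livers the window density was 2.29 at the lowest, 3.7 at the median and 6.94 at the highest liver, with a mean of 3.56 ± 1.12 (SD, n = 17), and the flank density was 6.18 ± 0.29. In SB livers it was 3.25, 4.3 and 5.57, with a mean of 4.27 ± 0.601 (SD, n = 13), and the flank density was 5.45 ± 0.34. The windows lay below their flanks in 16 of 17 PB and 12 of 13 SB livers. The exceptions were PB liver 15 at 6.94 against 6.63 and SB liver 13, whose value rests on 3 sites.

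The window share, the percentage of window and flank sites that fall in the windows, compares both within a liver. An even density would give 12.26%, the windows' share of the length. The share was 7.387% ± 1.97 (SD, n = 17) in PB (two-sided exact sign-flip permutation test over livers, p = 3.1e-05, adjusted p = 0.0001 over 10 tests). In SB it was 9.885% ± 1.447 (SD, n = 13; exact sign-flip permutation test, adjusted p = 0.0014). Lower density than the flanks was common in the genome: of 7874 autosomal windows of 300 kb, 46.3% were lower at an unadjusted sign-flip p under 0.05 in PB and 29.5% in SB, while 26.5% and 18.5% were higher.

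Relative to their flanks, the windows held fewer PB than SB sites. The PB share was 2.5 percentage points below the SB share (two-sided permutation test with 100000 resamples, p = 0.0006, adjusted p = 0.003 over 5 tests). Autosomal windows of 300 kb also had a lower median ratio to their flanks in PB (0.814) than in SB (0.941). Whether the Hox difference exceeds this general one was not tested. In density alone the difference of -0.712 did not pass (permutation test, p = 0.047, adjusted p = 0.12). Without PB liver 15, the PB liver of highest density, the difference was -0.924. That liver was left out after its value was seen, so no p is given. Without SB liver 13 the difference was -0.604 and did not pass (permutation test, adjusted p = 0.11). Within livers 1 to 12, a set that also lacks PB liver 15, it was -0.701, with means of 3.46 and 4.16 (permutation test, adjusted p = 0.029). When positions recurring between livers were dropped, the share difference was -0.925 points (permutation test, adjusted p = 0.59). That setting removes many more PB than SB sites.

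**Figure D1:**
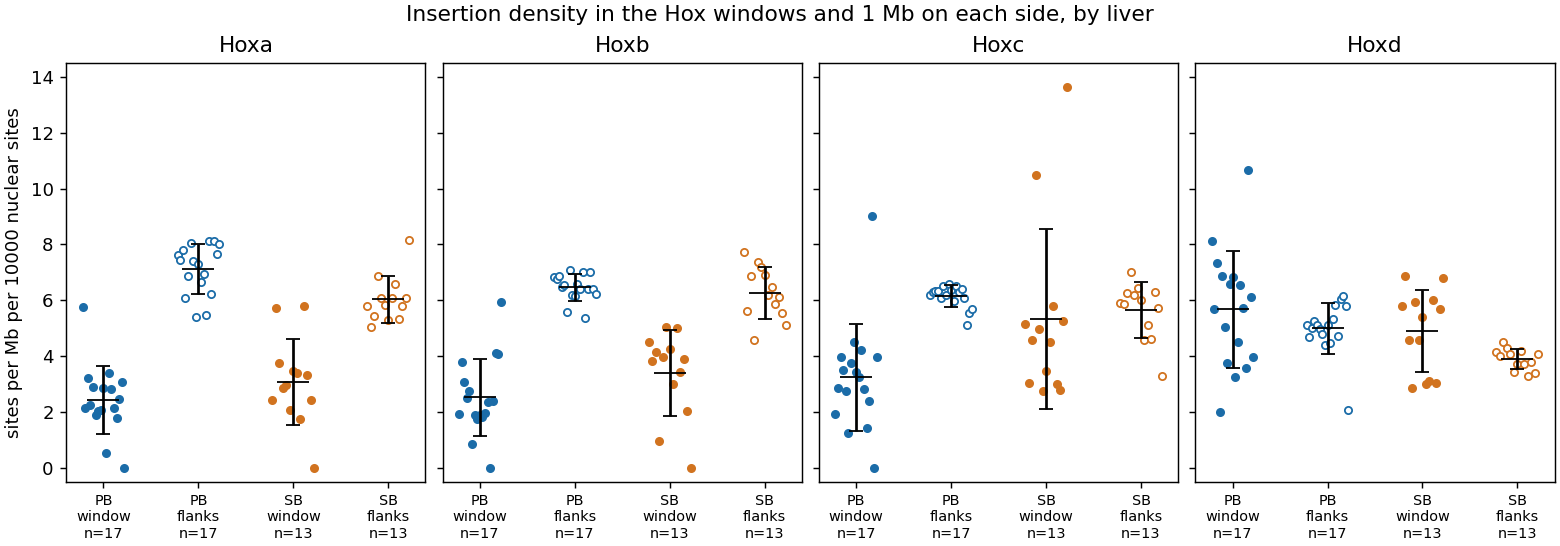
Insertion density (vertical axis, sites per Mb per 10000 nuclear sites) in each Hox window (filled points) and its flanks (open points), 1 point per liver, PB in blue and SB in orange; bars are mean and SD. PB window values lie below the flank values in 17 of 17 livers for Hoxa and Hoxb, while at Hoxd 5 of 17 do.

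Hoxa, which patterns limbs, gut and the hindbrain, was sparser than its flanks in both groups. It held 63 PB and 61 SB sites. PB density was 0 at the lowest, 2.25 at the median and 5.74 at the highest liver, with a mean of 2.42 ± 1.23 (SD, n = 17) against 7.13 ± 0.892 in the flanks. Every PB liver had fewer sites per Mb in the window than beside it, and the ratio of pooled densities was 0.364. SB density was 0, 2.97 and 5.79, with a mean of 3.07 ± 1.54 (SD, n = 13) against 6.03 ± 0.827, a pooled ratio of 0.55 with 11 of 13 livers lower. The window share was 3.306% ± 1.573 in PB (n = 17; exact sign-flip permutation test, adjusted p = 7.6e-05) and 5.062% ± 2.748 in SB (n = 13; exact sign-flip permutation test, adjusted p = 0.0014), where even density gives 9.091%. The groups' shares did not differ past the threshold (permutation test, adjusted p = 0.055). Without SB liver 13, which had 0 sites here, the difference was -2.18 points (permutation test, adjusted p = 0.011), and in livers 1 to 12 it was -1.81 points (adjusted p = 0.045).

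Hoxb, whose genes act in the hindbrain and in blood progenitors, had with Hoxa the lowest PB ratios of the 4 clusters. It held 85 PB and 108 SB sites. PB density ran from 0 over a median of 2.34 to 5.93, with a mean of 2.53 ± 1.38 (SD, n = 17) against 6.46 ± 0.477 in the flanks, a pooled ratio of 0.352. SB density ran from 0 over 3.88 to 5.03, with a mean of 3.39 ± 1.53 (SD, n = 13) against 6.27 ± 0.927, a pooled ratio of 0.585. All 17 PB and all 13 SB livers were lower in the window than in the flanks. Against an even 13.04%, the window share was 5.388% ± 2.796 in PB (n = 17; exact sign-flip permutation test, adjusted p = 7.6e-05) and 7.173% ± 2.883 in SB (n = 13; exact sign-flip permutation test, adjusted p = 0.00049). The groups did not differ past the threshold (permutation test, adjusted p = 0.12). They did without SB liver 13, which had 0 sites here too, by -2.38 points (permutation test, adjusted p = 0.029), and in livers 1 to 12, by -3.01 points (adjusted p = 0.0016).

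Hoxc, active in the trunk, limbs and skin, was sparser than its flanks in PB, and in SB the result depended on 1 liver. It held 125 PB and 126 SB sites. PB density was 0, 3.24 and 9.03 at the lowest, median and highest liver, with a mean of 3.23 ± 1.91 (SD, n = 17) against 6.15 ± 0.381. SB density was 2.74, 4.57 and 13.6, with a mean of 5.34 ± 3.22 (SD, n = 13) against 5.64 ± 1.0. The pooled ratios were 0.542 and 0.768, and 16 of 17 PB but 10 of 13 SB livers were lower in the window. The highest PB value was that of liver 15, with 11 window sites, and the highest SB value that of liver 13, with 2.

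Against an even 13.8%, the Hoxc share was 7.676% ± 4.581 in PB (n = 17; exact sign-flip permutation test, adjusted p = 0.00049). It was 13.37% ± 8.796 in SB (n = 13; exact sign-flip permutation test, adjusted p = 0.92). The difference of -5.69 points between the groups passed (permutation test, adjusted p = 0.033). In SB liver 13 the share was 2 of 5 sites, with an exact Clopper-Pearson 95% interval from 5.27% to 85.3%. Without that liver the SB share was 11.1%, 2.65 points below even density at an exact sign-flip permutation adjusted p = 0.047, and the difference between groups was -3.47 points (permutation test, adjusted p = 0.048). The difference did not pass with 2 Mb flanks (-2.7 points, permutation test, adjusted p = 0.084), with a support of at least 10 (-5.85 points, adjusted p = 0.074) or without reused positions (-4.95 points, adjusted p = 0.32).

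Hoxd, which shapes digits and the urogenital tract, was the one cluster not sparser than its flanks. It held 209 PB and 133 SB sites. PB density was 2.0, 5.7 and 10.7 at the lowest, median and highest liver, with a mean of 5.68 ± 2.1 (SD, n = 17) against 4.99 ± 0.914. SB density was 2.86, 5.41 and 6.86, with a mean of 4.89 ± 1.48 (SD, n = 13) against 3.89 ± 0.371. Pooled ratios were 1.13 and 1.21, with 5 of 17 PB and 4 of 13 SB livers lower in the window. The shares of 14.65% ± 4.561 in PB (n = 17) and 15.83% ± 4.445 in SB (n = 13) did not pass against an even 13.04% (exact sign-flip permutation tests, adjusted p = 0.18 and 0.06). The PB share passed without reused positions, at 16.7% (adjusted p = 0.02), and with 2 Mb flanks, at 8.52% against 6.98% (adjusted p = 0.047), and the SB share with a support of at least 10, at 15.7% (adjusted p = 0.043). The groups' shares did not differ past the threshold (permutation test, adjusted p = 0.48).

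The Hoxd value was the sum of a longer stretch of lower density and a dense end, a split made after the values were seen. The last 50 kb, chr2:74650001-74700000, held 133 of the 209 PB sites and 59 of the 133 SB sites. PB density there was 6.01 at the lowest, 20.5 at the median and 49.3 at the highest liver, with sites in all 17 livers and a mean of 21.5 ± 11 (SD). SB density there was 0, 12.2 and 27.4, with sites in 12 of 13 livers and a mean of 12.1 ± 7.29 (SD). The first 250 kb had 2.51 ± 1.48 in PB and 3.46 ± 1.75 in SB, about the level of Hoxa and Hoxb. These means were not below those of the 500 kb before and after the window, at 1.82 and 1.66 in PB and 2.64 and 2.6 in SB. The 100 kb after the window had 3.02 ± 2.95 in PB and 4.19 ± 4.0 in SB, so the dense stretch ended near the window's edge.

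With that 50 kb left out, the Hoxd share was 6.06% in PB and 9.91% in SB, where length gives 11.1%. Over all clusters the density without this stretch was 2.7 for PB against 3.9 for SB. These values are a description with no test, since the stretch was left out for being dense, and removing it lowers PB more than SB. Mtx2 follows Hoxd1 in the gene order, and whether this stretch holds Hoxd genes, Mtx2 or sequence between them was not determined.

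Hoxd also stood in sparser surroundings than the other clusters. In the 500 kb on either side, PB density was 1.82 ± 0.941 before and 1.66 ± 0.586 after the window (SD, n = 17), and SB density was 2.64 ± 0.674 and 2.6 ± 1.43 (SD, n = 13). The next 500 kb after it rose to 11.6 ± 2.96 in PB and 4.36 ± 1.24 in SB. The Hoxd result depended on the size of the flanks. With flanks of 500 kb its share was 49.1% in PB and 36.2% in SB against an even 23.1% (exact sign-flip permutation tests, adjusted p = 7.6e-05 and 0.0024), and PB was higher than SB by 12.9 points (permutation test, adjusted p = 0.013).

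**Figure D2:**
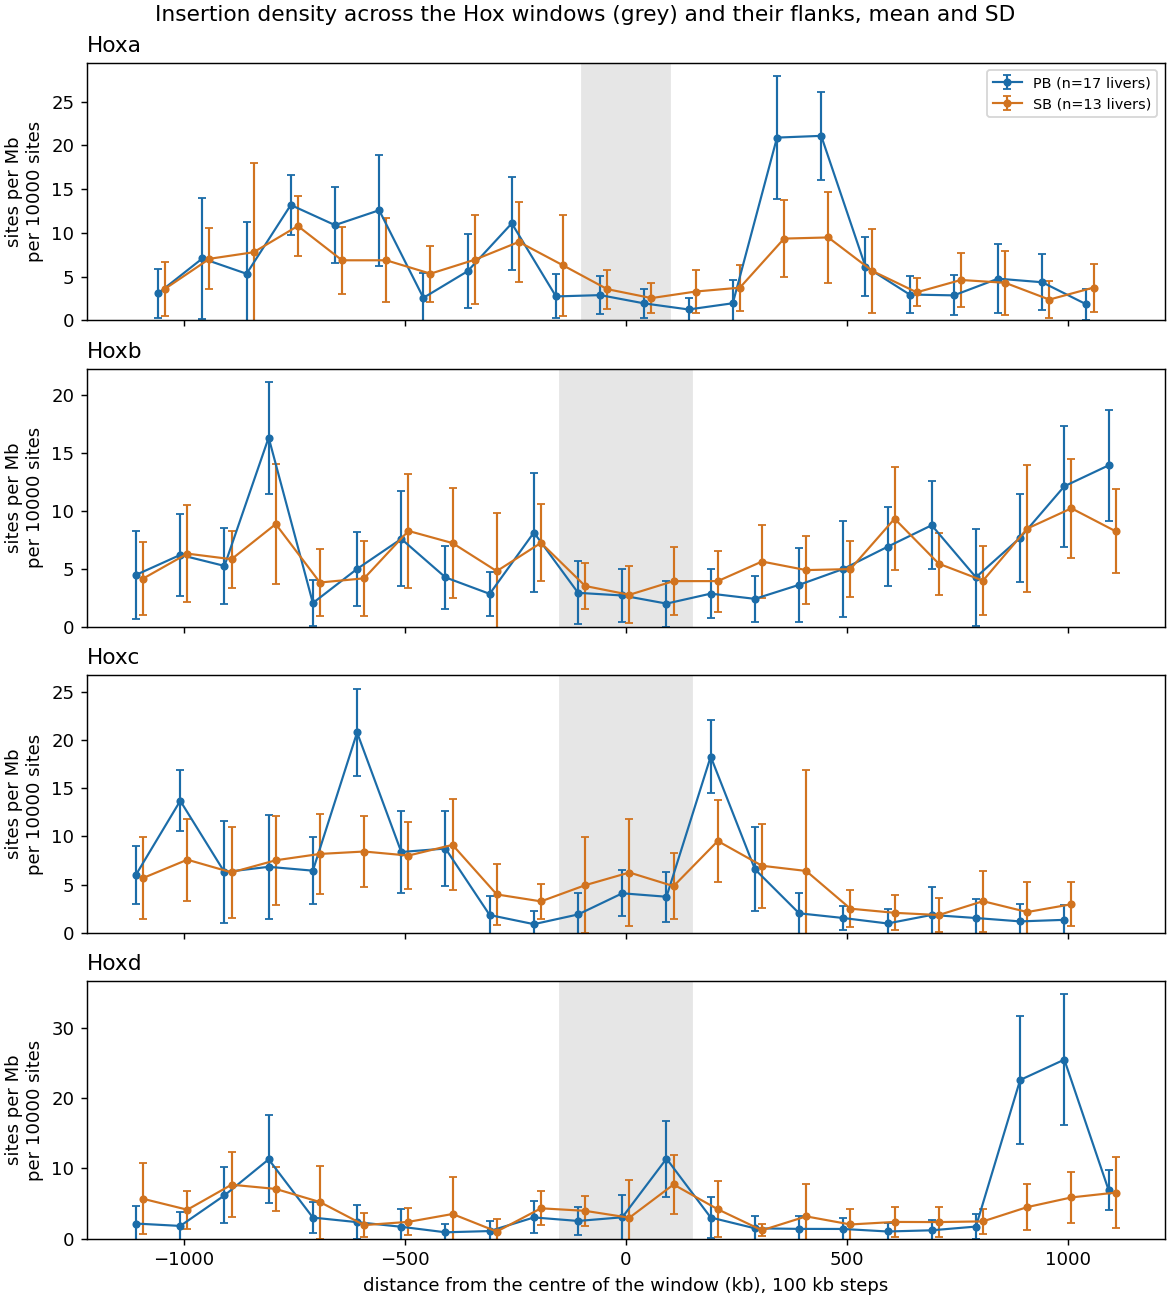
Mean insertion density and SD over livers (vertical axis, sites per Mb per 10000 sites) in 100 kb steps by distance from the centre of each window (horizontal axis, kb), PB (17 livers) in blue and SB (13 livers) in orange, with the window in grey; bars are cut at 0. PB has dense steps in the flanks, some of them adjacent, up to 25.5 at 1000 kb from the Hoxd centre. The densest SB flank step is 10.8, in the flank of Hoxa.

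A few dense steps raised the PB flank mean beside Hoxa, Hoxb and Hoxd, to 7.13, 6.46 and 4.99. Beside Hoxa, the densest PB step, chr6:52600001-52700000, had 21.1 ± 5.02, while the median of the 20 flank steps was 5.06. The PB medians beside Hoxb, Hoxc and Hoxd were 5.1, 6.03 and 1.99. In the order Hoxa to Hoxd, the SB medians were 5.97, 5.71, 6.26 and 3.83. The PB mean beside Hoxc, at 6.15, and the SB means of 6.03, 6.27, 5.64 and 3.89 lay nearer to these medians. All Hoxa and Hoxb window steps lay below these medians in both groups. The lowest Hoxb step was below every flank step in PB, at 1.98, and in SB, at 2.74. In Hoxc, 8 of 19 flank steps were sparser than the lowest window step in each group. The densest Hoxd step, at 11.4 in PB and 7.72 in SB, exceeded 18 of 20 and 20 of 20 flank steps.

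Set against the whole genome, most Hox windows lay above the median of 100 kb windows. Over 25904 windows of 100 kb with a site, the median density was 2.03 in PB and 3.3 in SB, with a mean of 3.86 in each. The 11 Hox windows of 100 kb had medians of 2.9 and 3.92, and 3 of 11 lay below the genome's median in each group. Against the mean, the Hox density over all 4 clusters was lower in PB, at 3.56, and higher in SB, at 4.27, and the flanks were higher in both, at 6.18 and 5.45. These differences from the genome were not tested.

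Among 7874 autosomal windows of 300 kb treated in the same way, the median ratio to the flanks was 0.814 in PB and 0.941 in SB. In PB, 14.2% of these windows had a ratio at or below that of Hoxa, 13.2% at or below Hoxb, 30.2% at or below Hoxc and 67.8% at or below Hoxd. In SB the percentages were 10.2, 13.6, 33.0 and 73.2. Thus Hoxa and Hoxb fell in the lower part of both distributions, and Hoxd in the upper part. The Hoxa window is shorter than 300 kb, so its percentages set unlike lengths against each other.

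**Figure D3:**
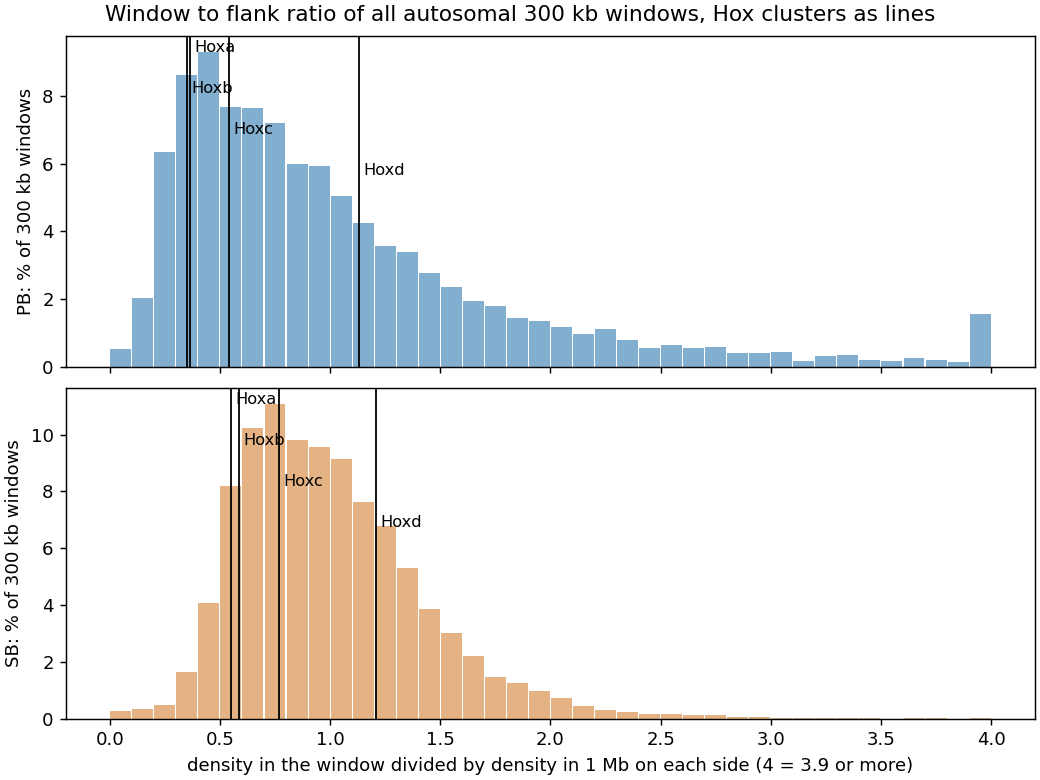
Distribution of the ratio of window density to flank density over 7874 autosomal windows of 300 kb (bars, percent of windows; the last bar holds all higher ratios), with the ratio of each Hox cluster as a vertical line, for PB and SB. Hoxa (0.364 in PB, 0.55 in SB) and Hoxb (0.352 and 0.585) lie left of the medians of 0.814 and 0.941, and Hoxd (1.13 and 1.21) lies right of them. The Hoxa window is shorter than 300 kb.

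PB and SB were then compared in each 100 kb window by edgeR's quasi-likelihood test with Benjamini-Hochberg adjustment over 25237 windows. PB was higher in 9.42% of all windows and SB in 14.8%, and the median log2 difference (PB minus SB) was -0.407. Of the 11 Hox windows, 1 was called PB higher and 0 SB higher. Their median log2 difference was -0.318, near that of all windows. The called window was the last of Hoxd, chr2:74600001-74700000, with 143 PB sites in 17 livers and 75 SB sites in 12. Its density was 11.4 ± 5.39 in PB and 7.72 ± 4.17 in SB, with a log2 difference of 0.542 (SE 0.209, edgeR adjusted p = 0.042). The call was lost under limma-voom (adjusted p = 0.097), in livers 1 to 12 (0.078), without reused positions (0.25) and in a fit blocked on liver number (0.078).

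The other 10 windows did not pass, with standard errors of the log2 difference from 0.302 to 0.437. In Hoxa, the first window, chr6:52100001-52200000, had 2.9 ± 2.17 in PB and 3.58 ± 2.23 in SB, a log2 difference of -0.318. The second, chr6:52200001-52300000, had 1.95 ± 1.62 and 2.56 ± 1.7, a log2 difference of -0.307. The Hoxb windows had 2.91 ± 2.71, 2.68 ± 2.31 and 1.98 ± 1.98 in PB and 3.5 ± 1.96, 2.74 ± 2.47 and 3.92 ± 2.95 in SB, in genome order. Their log2 differences were -0.759, -0.483 and -0.758, and the first and last had unadjusted edgeR p = 0.038 and 0.033. All 3 Hoxb windows lay below the median flank step in both groups.

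The Hoxc windows had 1.89 ± 2.26, 4.09 ± 2.37 and 3.73 ± 2.58 in PB and 4.93 ± 4.99, 6.25 ± 5.52 and 4.83 ± 3.45 in SB. The largest log2 difference of these, -0.89 in the first window, had an edgeR adjusted p = 0.079, with sites in 11 of 17 PB and 13 of 13 SB livers. The first and second Hoxd windows had 2.53 ± 2.05 and 3.05 ± 3.24 in PB and 3.97 ± 2.09 and 2.99 ± 5.38 in SB, with log2 differences of -0.57 and 0.495. Relative to the median window of the genome, both Hoxa windows and the last 2 Hoxc windows had the opposite sign.

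**Figure D4:**
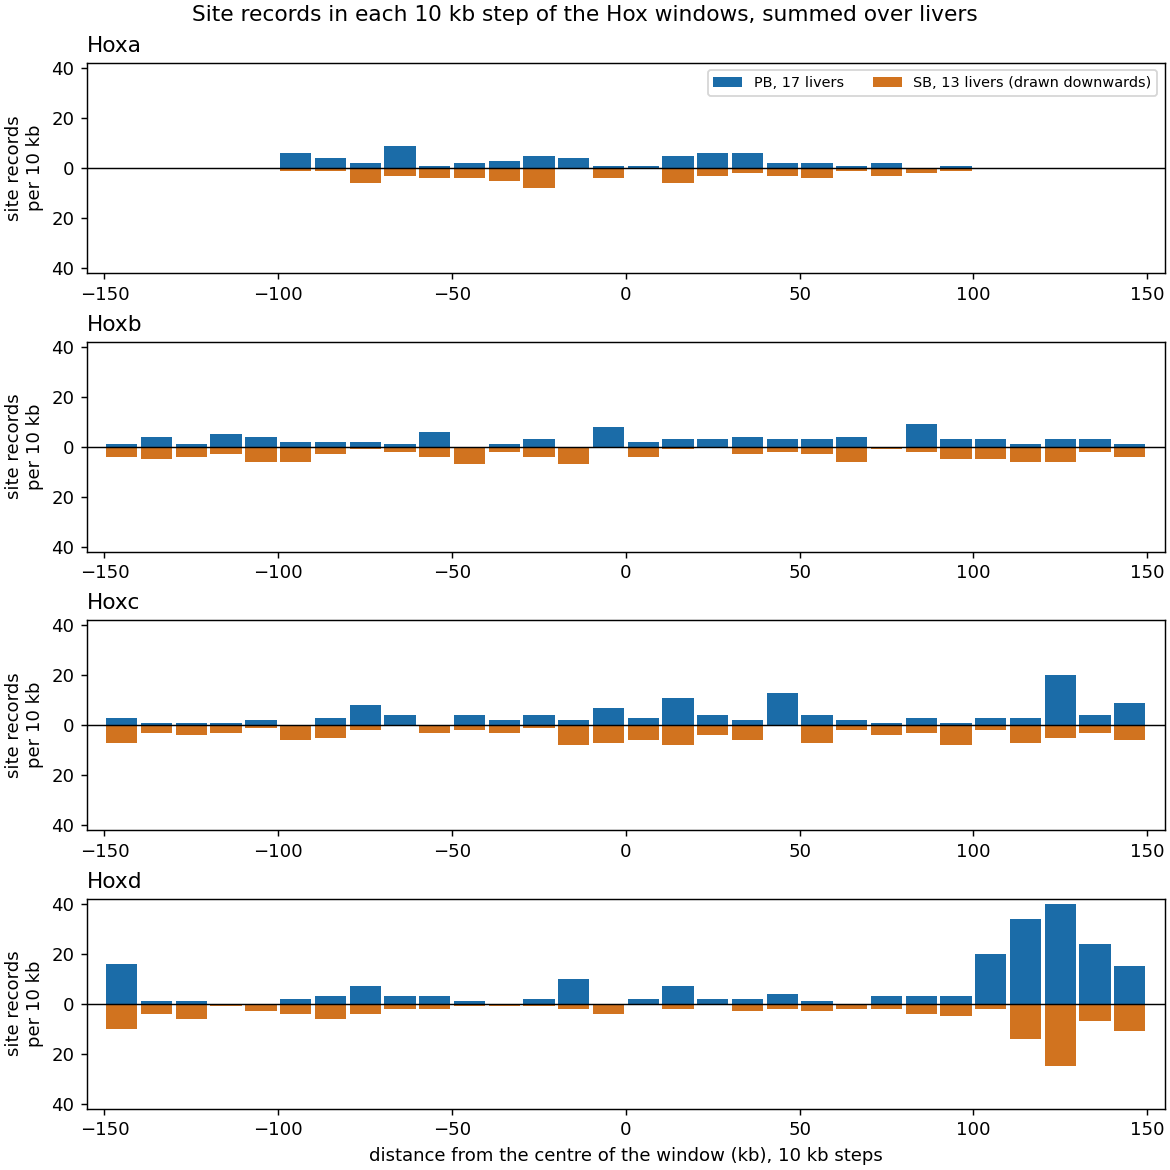
Site records in each 10 kb step of the windows (horizontal axis, distance from the window's centre in kb), summed over livers, PB (17 livers) upwards in blue and SB (13 livers) downwards in orange. Both vectors peak in the last 50 kb of Hoxd, where the 10 kb step with most sites holds 40 PB and 25 SB records.

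In 10 kb steps, sites were spread thinly over Hoxa and Hoxb in both groups and over Hoxc in SB. They were gathered at a few places of Hoxc in PB and of Hoxd in both groups. The fullest Hoxa steps held 9 PB sites (chr6:52130001-52140000) and 8 SB sites (chr6:52170001-52180000). The next held 6, a tie in both groups, of which the first in genome order were chr6:52100001-52110000 in PB and chr6:52120001-52130000 in SB. The fullest Hoxb steps held 9 PB sites (chr11:96230001-96240000) and 8 (chr11:96140001-96150000), and 7 SB sites each at chr11:96100001-96110000 and chr11:96130001-96140000. No step of either cluster thus reached 10 sites in 1 group.

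In Hoxc, the fullest PB steps held 20 sites from 12 livers (chr15:103070001-103080000) and 13 from 8 livers (chr15:102990001-103000000). The fullest SB steps held 8 sites each, at chr15:102930001-102940000, chr15:102960001-102970000 and chr15:103040001-103050000. In Hoxd, chr2:74670001-74680000 was the fullest in both groups, with 40 PB sites from 17 of 17 livers and 25 SB sites from 10 of 13. The neighbouring step, chr2:74660001-74670000, was second in both, with 34 PB sites from 13 livers and 14 SB sites from 8. The same 20 kb thus led in both vectors.

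Of 110 Hox steps, 25 had the 10 sites over all livers that the test required, and such steps pass mainly where a group is dense. In the genome, 13.2% of 69709 steps were called PB higher and 5.41% SB higher. Among the 25 Hox steps, 2 were called PB higher and 0 SB higher. The step chr15:102990001-103000000 in Hoxc held 13 PB sites in 8 livers, at 8 positions, and 0 SB sites. Setting 3 sites for the SB group in place of 0 gave a PB to SB ratio of 3.34. The counting error of the 13 PB sites is left out of this ratio, so it is no lower bound. The step chr2:74650001-74660000 in Hoxd held 20 PB sites in 11 livers and 2 SB sites in 2 livers, a density of 15 ± 14.7 against 2.13 ± 5.22 (log2 difference 2.22, SE 0.636). Both steps reached the 10 sites through PB alone and could only be called PB higher, so no p is given for them. It is the first step of the dense end of Hoxd.

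Few steps were empty. In PB, 11 of 110 Hox steps (10.0%) held no site, against 7.75% of flank steps and 18.3% in the genome. In SB, 8 of 110 (7.27%) were empty, against 4.07% and 12.2%. The longest stretch with no PB position was 23 kb in Hoxd, from chr2:74429223 to 74452195, and with no SB position 22.2 kb in Hoxb, from chr11:96162414 to 96184653. In 5 cases a liver had 0 sites in a cluster. These were PB livers 17 (Hoxa), 13 (Hoxb) and 16 (Hoxc), where 0 sites allow densities up to 8.89, 4.28 and 6.11 (3 sites, counting error only), and SB liver 13 in Hoxa and Hoxb, where they allow 30.7 and 20.4.

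Reuse of the same Hox positions by different livers was common in PB and rare in SB. In PB, 92 of 482 window sites (19.1%) lay at a position and strand also found in another PB liver, against 33.1% in the flanks and 28.7% of all nuclear sites. In SB, 9 of 428 (2.1%) did, against 2.91% and 2.09%. A coincidence counts in both livers, so these shares were not tested. Per liver the share was 20.9% ± 9.97 in PB (n = 17) and 1.88% ± 1.87 in the 12 SB livers with at least 5 window sites. Within PB it was 9.52% in Hoxa, 7.06% in Hoxb, 28.0% in Hoxc and 21.5% in Hoxd, while the flanks of the 4 clusters ran from 31.6% to 35.0%. Hoxa and Hoxb, the sparsest in PB, thus also had the least PB reuse, and the part of density in this was not tested.

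With strand ignored, PB used 395 Hox positions, of which 51 (12.9%) recurred in 2 or more livers and 12 in 3 or more. Of the 51, 19 lay in the last 50 kb of Hoxd. SB used 421 positions, of which 6 (1.43%) occurred in at least 2 livers. PB and SB shared 2 positions, 0.506% of the PB and 0.475% of the SB positions, 1 in Hoxc and 1 in Hoxd. For these counts of positions, the shares in the flanks and over all nuclear positions are not given here. They therefore describe the windows alone.

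The PB position found in most livers was chr15:103071338-103071341 in Hoxc, in 9 of 17 livers, with 6 records on each strand. It gives 12 of the 20 records of the fullest Hoxc step. The next were chr2:74676566-74676569, in 7 livers with 5 plus and 3 minus records, and chr2:74657279-74657282, in 5 livers with 3 plus and 2 minus records, level with chr2:74667384-74667387, also in 5. These lie in the dense end of Hoxd. The SB position found in most livers, chr2:74692264-74692265, was also in this end, in 3 of 13 livers and on the minus strand each time. The other 5 reused SB positions were in 2 livers each, among them chr2:74648602-74648603, on the plus strand, and chr6:52175209-52175210 in Hoxa, with 1 record on each strand.

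Insertions were found on both strands in every cluster. The minus strand share was 16.7% at the lowest, 57.9% at the median and 75.0% at the highest PB liver (mean 54.2% ± 15, SD, n = 17). In SB it was 42.1%, 53.4% and 60.5% (mean 51.9% ± 5.31, SD, n = 12). The difference of 2.24 points did not pass (two-sided permutation test, p = 0.63). Hoxc in PB had the most uneven strands, with 82 of 125 sites (65.6%) on the minus strand, against 51.6% in its flanks. Counting each position and strand once, 67 of 103 (65.0%) were on the minus strand, and this was not tested. In SB, Hoxc had 64 of 126 (50.8%).

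Support, the whole number listed with each site and taken as its reads, did not differ past the threshold between windows and flanks in either group. In SB the call changed when reused positions were left out. The mean log2 support was 5.62 in the windows and 5.6 in the flanks of PB livers, a difference of 0.0202 ± 0.415 (SD, n = 17), higher in 9 of 17 livers (exact sign-flip permutation test, p = 0.86). In SB livers the mean log2 support was 5.26 and 5.39, a difference of -0.13 ± 0.202 (SD, n = 12), higher in 5 of 12 (exact sign-flip permutation test, p = 0.051). The window site of highest support had 329 in PB and 269 in SB.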

How the data were processed

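Sites were read from 1 table per liver, with groups and liver numbers from the sample titles. The submitters' processing notes name cutadapt, BWA and the GRCm39 build, with no versions. Each deposited row gives position, strand and a whole number of unstated meaning, which was read as the number of reads and called support (3 or more). A PB row spans 4 bp and an SB row 2 bp. The deposited merged tables give counts of liver and strand records for livers 1 to 12. They matched at 356 of 356 PB and 418 of 418 SB Hox positions and were used for nothing else.

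Here, nuclear sites were counted per liver in the Hox windows, in 1 Mb on each side (Hoxc ends at the last site seen on chromosome 15), and in steps of 100 and 10 kb. Group means were compared by two-sided permutation tests, windows and flanks by exact sign-flip tests over livers, both with Benjamini-Hochberg adjustment. Steps with at least 10 sites over all livers were fitted with edgeR 4.0.16 in R 4.3.3, with nuclear sites as library size. DESeq2 1.42.0 and limma 3.58.1 were alternatives. The fit was tested on simulated counts. Other values used Python 3.11.15, pandas 2.3.3, numpy 2.4.6 and scipy 1.17.1. Each liver is 1 replicate, and p-values measure the spread between livers. Strand and support tests left out livers with under 5 window sites.

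Named were all clusters and 100 kb windows, the 2 fullest 10 kb steps per cluster and group, every called 10 kb step and the 3 positions in most livers of each group. Windows and lists were chosen with earlier results of these data known. Other alternatives were livers 1 to 12, single livers left out, sites within 10 bp merged, reused positions left out, a support of at least 10, other flanks, totals and filters, and the liver number as a block. Deviations of same-numbered livers correlated weakly and positively in all 13 pairs, at 0.025 to 0.15, over 0.1 in 6. What equal numbers share is not stated. The main tests did not treat them as pairs, and the block on liver number was run beside them.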

Additional observations from a re-analysis of the deposited data

Results flagged for a closer look

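The window share over all 4 Hox clusters differed between the vectors by -2.5 percentage points (PB minus SB, permutation test, adjusted p = 0.003 over 5 tests). It was picked out because the same comparison of window with flanks gave a different size in each group, and the test is of that difference itself. The median ratio of autosomal 300 kb windows to their flanks was also lower in PB (0.814) than in SB (0.941). Whether the Hox difference exceeds this was not tested.

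The Hoxc window share differed by -5.69 percentage points in the same test (permutation test, adjusted p = 0.033). SB liver 13, with 2 Hoxc sites, moved it by over 1.5 times, to -3.47 points without that liver (permutation test, adjusted p = 0.048).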

How the results depend on the processing

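The lower share of the Hox windows than of their length kept its direction and its call in both groups under every alternative run. The combined PB against SB density difference passed in livers 1 to 12 (-0.701) and with the replicate block (-0.896, exact sign-flip permutation p = 0.0081 over 13 numbers). Without SB liver 13 it was -0.604 and did not pass. The share difference under the block was -2.83 points, with its call kept. Leaving out PB liver 15, the PB liver of highest density, gave a density difference of -0.924. This was chosen after seeing the data and is no test. Without reused positions the share difference no longer passed (-0.925 points), the Hoxa and Hoxb density differences were 0.0375 and 0.229, the Hoxb and Hoxd share differences were 0.636 and 0.743 points, and the SB support difference passed at -0.142 (exact sign-flip permutation p = 0.032). The Hoxd share difference was 12.9 points with 500 kb flanks and 0.174 with 2 Mb flanks. Without the last 50 kb of Hoxd, left out after it was seen to be dense, above all in PB, the combined density difference was -1.2 and the Hoxd density difference -0.957 and its share differed from the length share by -5.05 points in PB and -1.2 in SB. These values describe the rest of the window and are no test. Median support gave -0.0644 in PB. With sites within 10 bp merged, the reused share in SB was 3.95%. The cause of these shifts was not tested.

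In the 100 kb fit, 0 Hox windows were called under limma-voom, in livers 1 to 12, without reused positions and with the block. Centring on the median window moved the genome-wide split from 2378 PB higher and 3736 SB higher to 4231 and 988, and turned the log2 differences of chr6:52100001-52200000 (0.069), chr6:52200001-52300000 (0.072), chr15:102900001-103000000 (0.226) and chr15:103000001-103100000 (0.111). Without reused positions, chr6:52200001-52300000 gave 0.181 and chr11:96100001-96200000 gave 0.123, and with a support of at least 10, chr15:102900001-103000000 gave 0.015. Calls in the genome were 2426 and 2367 with TMM factors, 2373 and 1481 with DESeq2, 2187 and 2292 with the block and 454 and 264 without reused positions. In the 10 kb fit a minimum of 20 sites gave 39.8% PB higher and 1.87% SB higher, with 3 of 7 Hox steps called PB higher. Each of these 3 steps reached 20 sites through PB alone, so the count is a description and no test. Few sites per liver limit the precision: small clusters in small catalogues rest on 0 to 3 sites.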
